A study of Homo sapiens with 12 samples.

Results

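The response of SZ95 sebocytes to resveratrol in the presence of linoleic acid was read from 6 of the 12 libraries of the study, 3 given LA and 3 given LA with RVT. SZ95 is an immortalised human cell line from the sebaceous gland, the skin gland that makes sebum. Resveratrol, the RVT of the labels, is a plant polyphenol, and the study's title sets it against lipid accumulation and inflammation in these cells. LA is not spelled out in the labels and is taken as linoleic acid, a polyunsaturated fatty acid that drives sebocytes to store lipid. The other 6 libraries, 3 with PGN (read as bacterial peptidoglycan) and 3 with PGN and RVT, served only to ask where the response differed. All 6 libraries described here carried LA, and no untreated group is analysed here, so the effect of LA alone cannot be read. The labels leave out doses, times and the vehicle. The design text calls the replicates biological, but nothing says they came from separate culture days, so the p-values speak only to the spread among these 6 libraries, which may be technical.

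Expression was deposited as TPM, which states a gene's part of a library's transcripts after correction for transcript length. Of 60671 genes in the table, 15409 averaged 1 TPM or more across the 6 libraries and were tested with limma on log2(TPM + 1). A gene was called when its p-value, adjusted by the Benjamini-Hochberg method over all genes tested, was below 0.05. Fold changes are given on that log2 scale with the standard error (SE) of the fit, which understates the change of genes near 1 TPM. The genes examined fall into 4 groups: chaperones, cell adhesion, epithelial structure and differentiation, and transport across membranes. Their 23 lists hold 787 gene symbols, of which 783 are in the table and 567 were tested, while 216 averaged less than 1 TPM.

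Chaperones fold new or damaged proteins, and those of the cytosol share a regulator, heat shock factor, which binds repeats of a short element in their promoters. Epithelial cells hold to each other through cadherins, desmosomes and tight junctions, and to the matrix beneath through integrins and laminins, while keratins form their inner skeleton. Water, glycerol, ions and nutrients cross the membrane through channels and carriers, and aquaporin-3 is the main glycerol channel of skin cells.

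In each library 15290 to 15452 genes reached 1 TPM, and the number of reads behind the values is unknown. Library pairs of one group correlated at 0.98 on the log2 scale and pairs across groups at 0.97 to 0.98, values over genes with no test. Epithelial markers were plain: KRT8 stood at 1754 TPM with LA and EPCAM at 249 TPM. Sebaceous lipid genes were present, with SCD, the fatty acid desaturase, at 121 TPM and PPARG, the lipogenic nuclear receptor, at 23.0 TPM. Of the 21 sebocyte and epithelial markers, AWAT1, AWAT2 and MC5R, which mark mature sebocytes, were listed at 0 in all 6 libraries. Markers of other cell types were low. In the fibroblast list 6 of 10 were below 1 TPM in both groups (summed list 12.4 to 19.0 TPM with LA, 16.8 to 20.1 TPM with LA and RVT, DCN at 0), in the melanocyte list 4 of 7 (25.8 to 27.4 and 31.3 to 33.6 TPM, TYR at 0), in the immune list 9 of 11 (48.2 to 52.0 and 56.3 to 58.9 TPM, CD3E, MS4A1 and NKG7 among those at 0) and in the endothelial list 5 of 6 (17.5 to 18.0 and 7.24 to 8.11 TPM, CLEC14A at 0). These sums rest mainly on COL1A1 and THY1, MITF, CD68 and CDH5, in that order of lists, all above 1 TPM here, and their part in the results was not tested. In bulk RNA fewer cells of a type and less RNA per cell cannot be told apart.

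Over all genes tested 1645 were higher and 781 lower with RVT, which is 15.7% of genes, 10.7% higher and 5.07% lower. Most of these calls were small: 1972 of the 2426 had a log2 change below 0.5 in size, and the median over all genes was 0.04. The groups did not overlap in any of the 2426, so lack of overlap is no further evidence for a called gene. When every library was set to the same median, the split became 1041 higher and 1080 lower, so the excess of higher over lower calls depends on the scale. Counts of list members with equal medians belong beside this split of the same 15409 genes, not beside the shares above. Leaving out 1 library lowered the number of calls by more than 1.5 times in 4 cases, to 1459 without LA replicate 1, 1428 without LA replicate 2, 1463 without LA replicate 3 and 1546 without LA and RVT replicate 2. It was 1638 without LA and RVT replicate 1 and 1690 without LA and RVT replicate 3. Counts of list members without a library belong beside these lower totals.

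**Figure D1:**
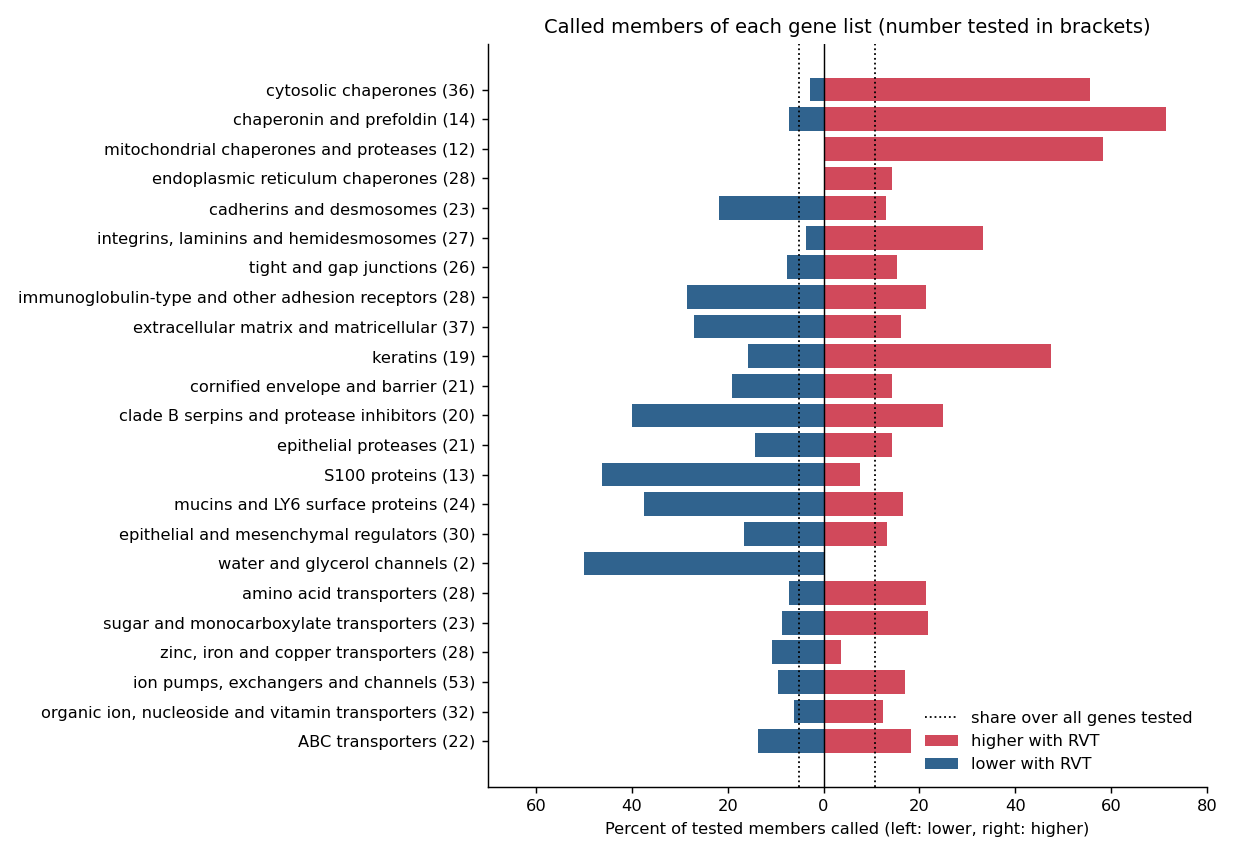
Share of the tested members of each of the 23 gene lists called higher (right, red) or lower (left, blue) with RVT under LA, in percent, with the number tested in brackets. Dotted lines mark the shares over all genes tested, 10.7% higher and 5.07% lower: the cytosolic, chaperonin and mitochondrial chaperones and the keratins reach farthest to the right, S100 proteins and the 2 tested water and glycerol channels farthest to the left.

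Most of the cytosolic chaperones rose. Of 36 tested members 20 were higher and 1 lower, where 10.7% of all genes were higher and 5.07% lower, and their median log2 change was 0.33 against 0.04 over all genes. Equal library medians gave the same 20 and 1. The genes with the largest changes were the inducible and constitutive HSP70 genes, their exchange factor and an HSP90 partner. Promoters of 6 called members, picked after their values were seen to span HSP70, HSP90 and their partners, are shown so that the heat shock element can be looked for in them. Each sequence is the 250 bases before a transcription start in RefSeq (GRCh38.p14), for genes of several starts the one with most matches, and capitals mark matches to the letters GAANNTTC or TTCNNGAA, which are 2 inverted units of the heat shock element.
HSPA1A, chr6:31815293-31815542, plus strand: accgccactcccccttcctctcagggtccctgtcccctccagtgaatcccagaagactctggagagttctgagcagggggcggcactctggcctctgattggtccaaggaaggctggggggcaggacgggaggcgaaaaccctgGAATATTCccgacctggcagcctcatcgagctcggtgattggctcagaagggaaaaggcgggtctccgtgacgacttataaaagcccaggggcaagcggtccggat
HSPA8, chr11:123062137-123062386, minus strand: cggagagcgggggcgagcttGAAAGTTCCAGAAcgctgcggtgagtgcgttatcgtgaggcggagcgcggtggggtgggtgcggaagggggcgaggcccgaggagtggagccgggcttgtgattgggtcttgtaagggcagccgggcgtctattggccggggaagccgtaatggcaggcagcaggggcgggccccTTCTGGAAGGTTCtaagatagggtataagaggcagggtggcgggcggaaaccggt
HSP90AA1, chr14:102087045-102087294, minus strand: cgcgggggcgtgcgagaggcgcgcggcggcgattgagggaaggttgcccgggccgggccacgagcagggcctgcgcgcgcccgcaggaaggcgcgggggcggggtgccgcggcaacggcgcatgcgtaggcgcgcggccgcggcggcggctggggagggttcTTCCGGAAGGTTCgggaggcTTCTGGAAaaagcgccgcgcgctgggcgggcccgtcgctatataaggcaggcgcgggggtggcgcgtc
CHORDC1, chr11:90223050-90223299, minus strand: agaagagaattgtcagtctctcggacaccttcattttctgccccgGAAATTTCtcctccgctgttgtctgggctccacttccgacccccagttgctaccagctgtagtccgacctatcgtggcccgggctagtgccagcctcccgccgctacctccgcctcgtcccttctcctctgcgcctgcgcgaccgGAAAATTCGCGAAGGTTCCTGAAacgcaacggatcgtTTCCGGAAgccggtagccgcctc
DNAJB1, chr19:14518398-14518647, minus strand: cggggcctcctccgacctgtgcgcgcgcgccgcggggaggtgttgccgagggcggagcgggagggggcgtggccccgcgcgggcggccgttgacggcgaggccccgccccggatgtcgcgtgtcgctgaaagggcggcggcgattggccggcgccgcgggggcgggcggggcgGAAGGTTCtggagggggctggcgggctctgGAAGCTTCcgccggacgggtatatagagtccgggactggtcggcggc
HSPH1, chr13:31162389-31162638, minus strand: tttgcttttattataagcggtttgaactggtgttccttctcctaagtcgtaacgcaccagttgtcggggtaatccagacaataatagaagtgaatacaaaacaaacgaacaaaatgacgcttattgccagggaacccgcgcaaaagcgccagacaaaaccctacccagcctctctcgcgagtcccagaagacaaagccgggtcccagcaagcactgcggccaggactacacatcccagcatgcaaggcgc

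HSPA1A holds 1 match, 106 bases before the start. HSPA8 holds 4, at 230, 225, 55 and 50 bases before it, in overlapping pairs. HSP90AA1 holds 3, DNAJB1 2 and CHORDC1 6, of which the 4 between 60 and 45 bases before the start overlap in a single run. HSPH1, whose log2 rise was 0.95, has no match to these letters in this window. Some 13.96% of 27305 genes in the promoter table hold a match on either strand in at least 1 of their listed starts. Among cytosolic chaperones it was 13 of the 19 higher members found in the table (with 31 starts), 1 of 1 lower member and 1 of 11 members not called (with 15 starts). The 3-unit form, GAA, TTC and GAA with NN between each, which contains both 2-unit forms, was in 0.557% of genes and in 5 of those 19, namely CHORDC1, DNAJB6, HSP90AA1, HSP90AB1 and HSPA8. A match describes the letters only. More starts per gene give more chances of a match.

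HSPA1A, the stress-inducible HSP70, measured 106.53, 108.93 and 111.71 TPM in the LA libraries and 208.16, 209.64 and 215.18 TPM once RVT was added. The lowest library with RVT was far above the highest without it, and the log2 change was 0.95 ± 0.030 (SE, n = 3 against 3, limma adjusted p = 4.54e-05). Its near-identical neighbour HSPA1B went from 86.3 ± 2.3 to 154 ± 4.2 TPM (SD, n = 3), and the rule by which reads were shared between them is not known. HSPA8, the constitutive HSP70 and one of the most abundant chaperones, read 431.95, 444.60 and 439.20 TPM and then 753.96, 810.97 and 771.77 TPM. The groups did not overlap, and the log2 change was 0.83 ± 0.031 (adjusted p = 5.90e-05). HSPH1, the HSP110 exchange factor of HSP70, rose from 41.4 to 81.1 TPM, by 0.95 ± 0.035 on the log2 scale.

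Both cytosolic HSP90 genes were higher as well. HSP90AA1, the inducible cytosolic HSP90, measured 668.39, 692.70 and 682.93 TPM without RVT and 1056.95, 1034.92 and 1019.80 TPM with RVT added, a log2 rise of 0.61 ± 0.023 (adjusted p = 5.90e-05). HSP90AB1, the constitutive form, rose from 645 to 802 TPM (0.31 ± 0.024). Among co-chaperones CHORDC1 rose from 40.2 to 71.6 TPM, FKBP4 from 47.9 to 71.2 TPM, AHSA1, which stimulates HSP90, from 121 to 163 TPM, STIP1, which joins HSP70 to HSP90, from 299 to 378 TPM and PTGES3 from 235 to 273 TPM. Among J-domain proteins, which deliver clients to HSP70, the higher ones included DNAJA4 from 34.9 to 53.7 TPM, DNAJA1 from 107 to 152 TPM, DNAJB6 from 174 to 236 TPM and DNAJB1 from 97.2 to 126 TPM. BAG3, an HSP70 partner in selective autophagy, rose from 64.6 to 89.4 TPM. HSPB1, the small heat shock protein HSP27, was the member that fell, from 634 ± 6.6 to 577 ± 11 TPM (log2 change -0.14 ± 0.022, adjusted p = 0.00866). HSF1, the heat shock factor itself, was at 93.7 and 106 TPM and was not called (adjusted p = 0.13).

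Chaperonin subunits, which form the ring that folds actin and tubulin, rose in most cases. Of 14 chaperonin and prefoldin members 10 were higher and 1 lower, where 10.7% and 5.07% of all genes were. Equal library medians gave 7 and 1. CCT5 measured 500.45, 524.42 and 503.11 TPM without RVT and 681.80, 691.43 and 680.30 TPM with RVT, a rise of 0.43 ± 0.024. CCT6A rose from 201 to 258 TPM and CCT2 from 122 to 151 TPM, while CCT7, a subunit of the same ring, was at 389 and 398 TPM and was not called. PFDN5, a prefoldin subunit, fell from 342 to 307 TPM.

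In mitochondria 7 of 12 chaperones and proteases were higher and none lower, where 10.7% and 5.07% of all genes were. The higher count fell to 4 without LA and RVT replicate 1 and was also 4 with equal medians. HSPD1 (HSP60) rose from 429 to 559 TPM (0.38 ± 0.025), and its partner HSPE1 rose from 531 to 623 TPM. The endoplasmic reticulum set, which folds secreted and membrane proteins, had 4 of 28 members higher and none lower. Its count was near the 10.7% of all genes and was 1 without LA replicate 2, LA replicate 3 or LA and RVT replicate 1, 2 without LA and RVT replicate 2 or 3, and 1 with equal medians. FKBP10, a collagen-folding isomerase, was the member called in every one of these fits and rose from 154 to 176 TPM. HSPA5 (BiP), the HSP70 of this compartment, was at 225.22, 230.43 and 229.57 TPM and at 247.31, 240.95 and 239.05 TPM. Its groups did not overlap, as in 36.2% of all genes, but the adjusted p was 0.0653. HSP90B1 was at 598 and 599 TPM and CALR at 737 and 728 TPM, neither called.

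**Figure D2:**
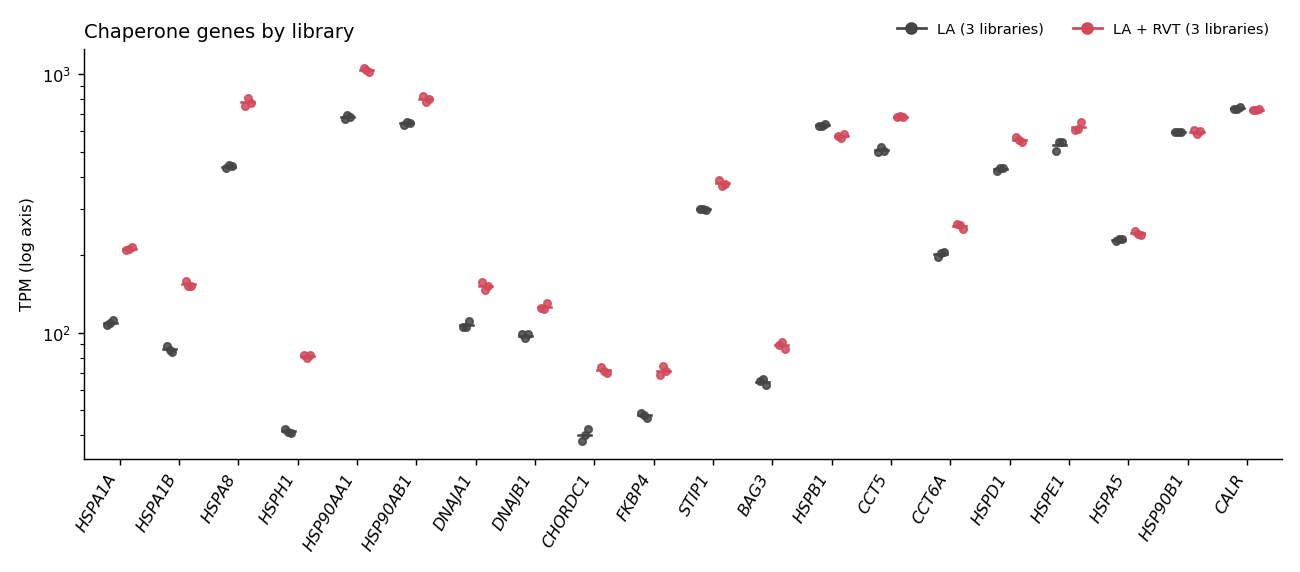
Level of 20 chaperone genes in each library (TPM, log axis), LA in grey and LA with RVT in red, with a dot per library and a bar at the group mean (n = 3). The groups of HSPA1A, HSPA8, HSPH1, HSP90AA1 and CHORDC1 lie far apart, HSPB1 is lower with RVT, and HSP90B1 and CALR of the endoplasmic reticulum overlap.

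Cell adhesion genes moved in both directions. Over the adhesion lists 28 of 141 members were higher and 26 lower, where 10.7% and 5.07% of all genes were. Equal medians turned this to 21 higher and 31 lower, beside 1041 and 1080 of all 15409 genes. The lower count was 16 without LA replicate 1 and 17 without LA and RVT replicate 3. In the list for attachment to the basement membrane 9 of 27 integrin, laminin and hemidesmosome members were higher and 1 lower, 8 and 3 with equal medians, and their median log2 change was 0.14. LAMA3 and LAMB3, chains of an anchoring laminin of skin epithelium, had the largest rises of the list. The promoters of LAMA3 and LAMB3, picked after their values were seen, are shown with the AP-1 element TGANTCA in capitals. Each is the 250 bases before a start (RefSeq, GRCh38.p14), for genes of several starts the one with most matches.
LAMA3, chr18:23872770-23873019, plus strand: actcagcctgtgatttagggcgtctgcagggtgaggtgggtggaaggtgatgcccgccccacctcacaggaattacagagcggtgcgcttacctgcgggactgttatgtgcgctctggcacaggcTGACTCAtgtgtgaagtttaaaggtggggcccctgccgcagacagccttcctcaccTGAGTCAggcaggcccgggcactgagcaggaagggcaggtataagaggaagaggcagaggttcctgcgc
LAMB3, chr1:209651375-209651624, minus strand: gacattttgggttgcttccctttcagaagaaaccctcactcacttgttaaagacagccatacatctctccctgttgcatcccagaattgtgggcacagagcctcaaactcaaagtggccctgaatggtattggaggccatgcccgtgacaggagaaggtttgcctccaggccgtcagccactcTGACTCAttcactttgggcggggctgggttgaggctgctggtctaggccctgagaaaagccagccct

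LAMA3 holds 2 matches, at 125 and 69 bases before this start, and LAMB3 holds 1, at 67 bases. The element was in 8.06% of genes of the table on either strand. In this list it was in 2 of the 6 higher members that the table holds (with 11 starts), which are LAMA3 and LAMB3 themselves. It was in 0 of 1 lower member and in 0 of 13 members not called (with 17 starts). Here too a match describes the letters only, and a role of AP-1 was not tested.

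LAMA3 measured 295.55, 301.63 and 294.58 TPM without RVT and 476.37, 483.67 and 461.50 TPM with it. The groups were well apart, and the log2 change was 0.67 ± 0.026 (adjusted p = 5.90e-05). LAMB3 read 354.90, 346.53 and 364.75 TPM and then 564.99, 558.24 and 553.53 TPM, a rise of 0.65 ± 0.025. LAMA5 was at 464 and 434 TPM and LAMB1 at 135 and 149.8 TPM, neither called.

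Of the integrin chains of this list, ITGA3 rose from 193 to 248 TPM, ITGA2, the collagen receptor chain, from 69.9 to 94.8 TPM, ITGA6 from 135 to 159 TPM and ITGB8 from 14.6 to 21.6 TPM. ITGB4, the hemidesmosome partner of ITGA6, was at 241 and 249.6 TPM (adjusted p = 0.327), and ITGB1 at 367 and 353 TPM (adjusted p = 0.12). DST, a hemidesmosome linker, rose from 41.0 to 48.8 TPM. COL17A1, the hemidesmosome collagen, was the list's lower gene, from 8.94 to 5.45 TPM. Its call was lost when any 1 library other than LA replicate 2 was left out.

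Genes of cell to cell junctions moved in both directions. Among cadherins and desmosomes 3 of 23 were higher, near the 10.7% of all genes, and 5 lower, where 5.07% of all genes were. When a library was left out 4 to 6 calls remained, fewest without LA replicate 2 or LA and RVT replicate 3. CDH1 (E-cadherin) read 415.36, 394.40 and 393.98 TPM without RVT and 407.95, 413.99 and 401.22 TPM with it. The groups overlapped, and the adjusted p was 0.634. CDH3 (P-cadherin) overlapped as well, at 262 ± 9.0 and 260 ± 0.91 TPM, and DSG3 was at 21.1 and 19.3 TPM (adjusted p = 0.142). CTNNA1, which ties cadherins to actin, fell from 289.8 to 253 TPM and PPL, a cross-linker of the cell envelope, from 145 to 125 TPM, while PKP3, a desmosomal plaque protein, rose from 68.0 to 91.1 TPM. CDH5, the cadherin of endothelial junctions, fell from 16.9 to 6.69 TPM. It was the only endothelial marker above 1 TPM.

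Tight and gap junction genes gave 4 higher and 2 lower of 26, not far above the 10.7% and 5.07% of all genes. The higher count was 3 without LA replicate 1 and 2 without any other single library, and equal medians gave 2 and 3. CLDN1, the main barrier claudin of epidermis, fell from 155 ± 5.7 to 113 ± 4.3 TPM (-0.46 ± 0.042), and TJP3 fell from 37.1 to 22.3 TPM (-0.71 ± 0.071). CLDN4, the most abundant claudin of the list, was at 440.3 and 443 TPM and was not called.

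Of 28 immunoglobulin-type and other adhesion receptors 6 were higher and 8 lower, where 10.7% and 5.07% of all genes were. The total was 9 without LA replicate 3 or without LA and RVT replicate 1 or 2. CD44, the hyaluronan receptor, stood at 358.10, 364.96 and 361.05 TPM and then at 493.74, 503.76 and 481.19 TPM, a rise of 0.45 ± 0.024 (adjusted p = 0.000213). EPCAM rose from 249 to 318 TPM and PVR (CD155) from 27.1 to 39.4 TPM. In the other direction LGALS3, a galectin, fell from 186 to 139 TPM and CEACAM1 from 9.45 to 5.76 TPM.

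Matrix genes were split too. Of 37 tested, 6 were higher and 10 lower, where 10.7% and 5.07% of all genes were. The total was 10 without LA replicate 1, and 6 were lower without LA replicate 1 or LA and RVT replicate 3. CCN1, a secreted matricellular protein and a target of the YAP coactivator, went from 86.43, 89.40 and 90.48 TPM to 170.50, 177.09 and 175.67 TPM. That is a log2 rise of 0.97 ± 0.032 (adjusted p = 4.54e-05) with wide separation of the groups. FN1 (fibronectin) rose from 473 to 730.2 TPM and THBS1 (thrombospondin-1) from 155 to 264 TPM. The genes that fell include the crosslinking enzymes LOXL2, from 87.5 to 63.7 TPM, and LOXL4, from 11.7 to 6.52 TPM, the basement membrane chain COL4A1, from 36.4 to 28.3 TPM, TNC (tenascin-C), from 48.0 to 35.5 TPM, and TGFBI, from 254 to 209.5 TPM.

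**Figure D3:**
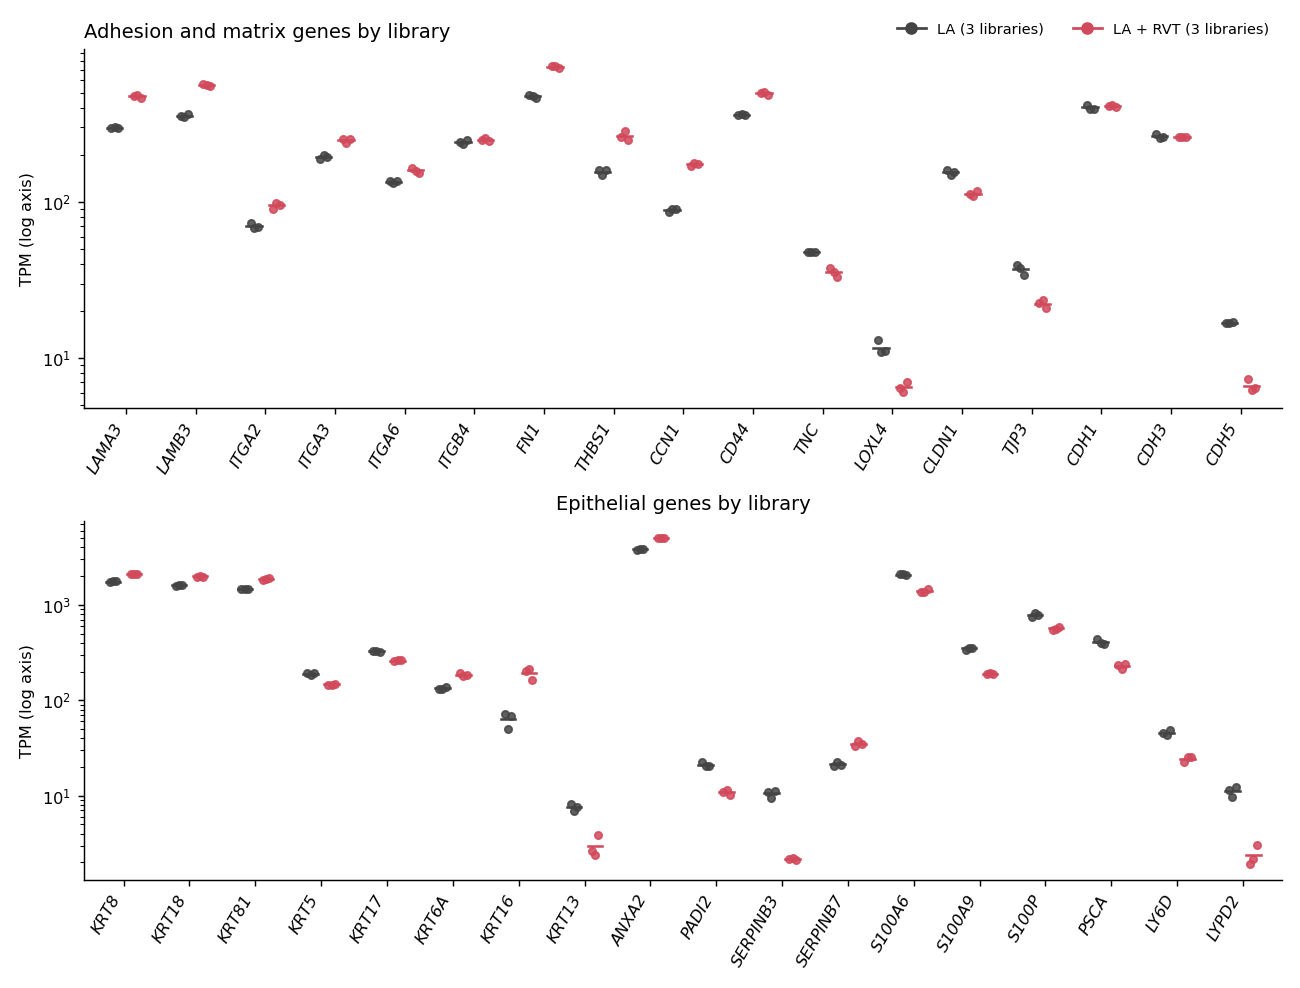
Level of 17 adhesion and matrix genes (top) and 18 epithelial genes (bottom) in each library (TPM, log axis), LA in grey and LA with RVT in red, with a dot per library and a bar at the group mean (n = 3). LAMA3, LAMB3, FN1 and CCN1 are higher with RVT and CDH1 and CDH3 overlap, while KRT16 is higher and KRT13, SERPINB3, PSCA and LYPD2 are lower.

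Epithelial structure and differentiation genes moved in both directions. Over these lists 29 of 148 were higher and 38 lower, where 10.7% and 5.07% of all genes were. Equal medians gave 22 and 44, beside 1041 and 1080 of all 15409 genes. Among keratins 9 of 19 tested were higher and 3 lower (7 and 3 with equal medians). Among keratins of simple epithelium, KRT8 rose from 1754 ± 31 to 2092 ± 12 TPM, KRT18 from 1603 to 1985 TPM and KRT7 from 1203 to 1471 TPM. KRT81, a hair-type keratin and the most abundant of its kind here, rose from 1468 to 1865 TPM. The wound-type keratin KRT6A rose from 133 to 184 TPM and KRT16 from 63.7 ± 11 to 193 ± 27 TPM.

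The 3 lower keratins were KRT5, KRT17 and KRT13. KRT5, a basal keratin, read 192.18, 184.27 and 191.74 TPM with LA and 145.38, 145.73 and 148.34 TPM with RVT, a change of -0.37 ± 0.029 (adjusted p = 0.000669). KRT17 fell from 326 to 260.5 TPM, although it is usually seen with KRT6A and KRT16. KRT13, a keratin of stratified mucosa, fell from 8.27, 6.89 and 7.6 TPM to 2.65, 2.37 and 3.84 TPM (-1.13 ± 0.156). KRT14, the usual partner of KRT5, was at 1.77 and 2.26 TPM and was not called. KRT6A, KRT16, KRT17 and KRT81 have near-identical copies, so their shares of reads are uncertain.

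Cornified envelope genes gave 3 higher of 21, not far above the 10.7% of all genes, and 4 lower, where 5.07% of all genes were. The lower count was 2 without LA replicate 1, LA replicate 3 or LA and RVT replicate 3. ANXA2, a calcium-dependent membrane linker, gained more TPM than any other gene named here. It rose from 3827 ± 76 to 5039 ± 19 TPM (0.40 ± 0.017, adjusted p = 9.25e-05). SPRR1B, a cross-linked envelope precursor, rose from 19.0 to 29.4 TPM. PADI2, a peptidylarginine deiminase, fell from 21.1 to 10.9 TPM and CALML5, a calmodulin-like protein of differentiated epidermis, from 6.6 to 2.24 TPM. IVL (involucrin) was at 16.2 and 17.9 TPM and was not called.

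The clade B serpins and other protease inhibitors had 5 higher and 8 lower of 20, where 10.7% and 5.07% of all genes were. Equal medians gave 4 and 10, and 3 were higher without LA and RVT replicate 2. SERPINB3 and SERPINB4, near-identical squamous serpins, fell together, SERPINB4 from 2.58 to 0.43 TPM and SERPINB3 from 10.6 to 2.19 TPM. SERPINB1, an elastase inhibitor, fell from 77.5 to 51.3 TPM and SERPINB2 from 65.7 to 49.3 TPM. SERPINB7 rose from 21.3 to 35.0 TPM (0.69 ± 0.066), and SERPINB5 (maspin) rose from 120.2 to 152 TPM. SLPI, a secreted elastase inhibitor, fell from 735 to 649 TPM. Among 21 proteases 3 were higher and 3 lower, the higher share not far above the 10.7% of all genes. KLK5, which starts the shedding of corneocytes, was higher (66.1 to 86.2 TPM) and PLAT, tissue plasminogen activator, lower (15.2 to 9.42 TPM).

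S100 proteins, small calcium-binding proteins of epithelium, had 1 higher and 6 lower of 13, where 10.7% and 5.07% of all genes were. S100A6 measured 2079.19, 2103.35 and 2052.23 TPM without RVT and 1373.40, 1355.14 and 1453.26 TPM with it. That fall of 0.58 on the log2 scale took more TPM from the library than that of any other gene named here. S100P fell from 782 to 565 TPM. S100A11 was the higher member, at 1739 and 1908 TPM, and with equal medians its adjusted p was 0.075.

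Surface proteins of the mucin and LY6 kind had 4 higher and 9 lower of 24, where 10.7% and 5.07% of all genes were. PSCA, a GPI-anchored LY6 protein, read 434.03, 394.38 and 387.27 TPM and then 235.55, 211.86 and 237.66 TPM (-0.82 ± 0.060). LY6D fell from 45.6 to 24.5 TPM and UPK3B, a uroplakin, from 72.0 to 49.8 TPM. LY6K rose from 52.9 to 72.6 TPM and CD59, a complement inhibitor, from 189 to 243 TPM. MUC1 was at 127.44, 142.73 and 115.56 TPM and at 87.69, 101.47 and 75.94 TPM, and its call was lost when any 1 library other than LA replicate 3 or LA and RVT replicate 2 was left out.

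Regulators of epithelial and mesenchymal state had 4 higher of 30, not far above the 10.7% of all genes, and 5 lower, where 5.07% of all genes were. SOX9, a factor of hair follicle and sebaceous progenitors, rose from 25.51, 24.92 and 23.82 TPM to 42.66, 43.41 and 42.45 TPM (0.77 ± 0.045, adjusted p = 0.000256). GATA3 rose from 18.1 to 24.2 TPM and HES1, a Notch target, from 23.1 to 31.6 TPM. KLF5 fell from 87.1 to 58.0 TPM, ELF3 from 288 to 195 TPM and ZNF750, a driver of terminal epidermal differentiation, from 6.36 to 3.47 TPM. GRHL2 and the splicing factor ESRP1 were not called.

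In the transport lists 25.0% of members were called, against 15.7% of all genes. In numbers, 29 of 188 were higher and 18 lower. With equal medians it was 23 and 24, beside 1041 and 1080 of all 15409 genes. Without any 1 of the 6 libraries the total of 47 became 27 to 31, lowest without LA replicate 2. Over all genes the 2426 calls became 1428 to 1690 in the same fits, also lowest without LA replicate 2. The members described next kept their call in each of those fits unless stated.

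AQP3, the aquaglyceroporin through which skin cells take up glycerol, lies at chr9:33441154-33447633 on the minus strand (GRCh38, GENCODE 29). It read 61.59, 59.14 and 61.34 TPM in the LA libraries against 23.67, 22.28 and 23.16 TPM in those with LA and RVT. The 2 groups are tight and far apart, with a log2 change of -1.36 ± 0.044 (adjusted p = 4.54e-05). AQP11 was the other aquaporin tested, at 1.16 and 1.55 TPM and not called, and 11 aquaporins were below 1 TPM.

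Of 53 ion pumps, exchangers and channels 9 were higher and 5 lower, where 10.7% and 5.07% of all genes were. The total was 8 without LA replicate 3 or LA and RVT replicate 2, and 9 without LA and RVT replicate 1 or 3. CFTR, the cyclic AMP-gated chloride channel, rose from 14.34, 14.54 and 13.89 TPM to 25.06, 29.11 and 27.05 TPM (0.88 ± 0.067). ATP6V1B1, a subunit of the proton pump, fell from 29.22, 24.79 and 27.47 TPM to 8.17, 8.71 and 11.65 TPM (-1.43 ± 0.130, adjusted p = 0.0011). CLIC3 fell from 316 to 231 TPM and FXYD3, a regulator of the sodium pump, from 266 to 207 TPM. ATP1B3, a beta chain of the sodium pump, rose from 62.2 to 78.9 TPM. The phosphate carriers SLC20A1 and SLC20A2 rose, from 110.0 to 132 TPM and from 49.9 to 68.2 TPM.

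Amino acid carriers had 6 higher of 28, where 10.7% of all genes were, and 2 lower, near the 5.07% of all genes. The total was 5 without LA replicate 2. Both lower genes are the chains of one exchanger: SLC7A5 (LAT1), which imports large neutral amino acids, fell from 356 ± 4.1 to 297 ± 2.6 TPM (-0.26 ± 0.022) and its heavy chain SLC3A2 from 309.5 to 275 TPM. SLC6A8, the creatine carrier, rose from 24.7 to 38.0 TPM, SLC43A3 from 134 to 169 TPM and SLC38A1, a glutamine carrier, from 78.0 to 90.1 TPM. SLC7A11, the cystine carrier, was at 5.03 and 4.89 TPM (adjusted p = 0.837).

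Sugar and monocarboxylate carriers gave 5 higher of 23, where 10.7% of all genes were, and 2 lower, not far above the 5.07% of all genes. The total was 4 without LA replicate 1, LA replicate 2, LA and RVT replicate 2 or LA and RVT replicate 3. SLC16A1 (MCT1), a lactate carrier, rose from 53.3 to 71.8 TPM, SLC16A5 fell from 41.4 to 31.8 TPM and SLC2A10 fell from 27.6 to 21.8 TPM. SLC2A1 (GLUT1), the main glucose carrier, stood at 257 ± 5.5 and 277 ± 16 TPM and was not called (adjusted p = 0.165).

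Metal carriers had 1 higher and 3 lower of 28, near the share of all genes, and 2 in all without LA replicate 1 or LA replicate 2. TFRC, the transferrin receptor, fell from 115 to 93.2 TPM (-0.30 ± 0.028) and SLC11A2, the divalent metal carrier, from 51.6 to 41.7 TPM. Of 32 organic ion, nucleoside and vitamin carriers 4 were higher and 2 lower, near the 15.7% called over all genes, and 3 in all without LA and RVT replicate 1. Its lower calls numbered 1 without LA and RVT replicate 2 and 0 without any other single library. SLC27A4, a fatty acid carrier, rose from 17.5 to 23.4 TPM.

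ABC transporters had 4 higher and 3 lower of 22, where 10.7% and 5.07% of all genes were. Yet no call of theirs survived every removal of a single library, and 1 remained without LA replicate 2, LA replicate 3 or LA and RVT replicate 3. ABCG1, a cholesterol exporter, was lower at 4.25 and 2.33 TPM (-0.66 ± 0.119, adjusted p = 0.0132). Its call was lost without LA replicate 1, and those of the other members in 4 to 6 of the 6 fits.

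**Figure D4:**
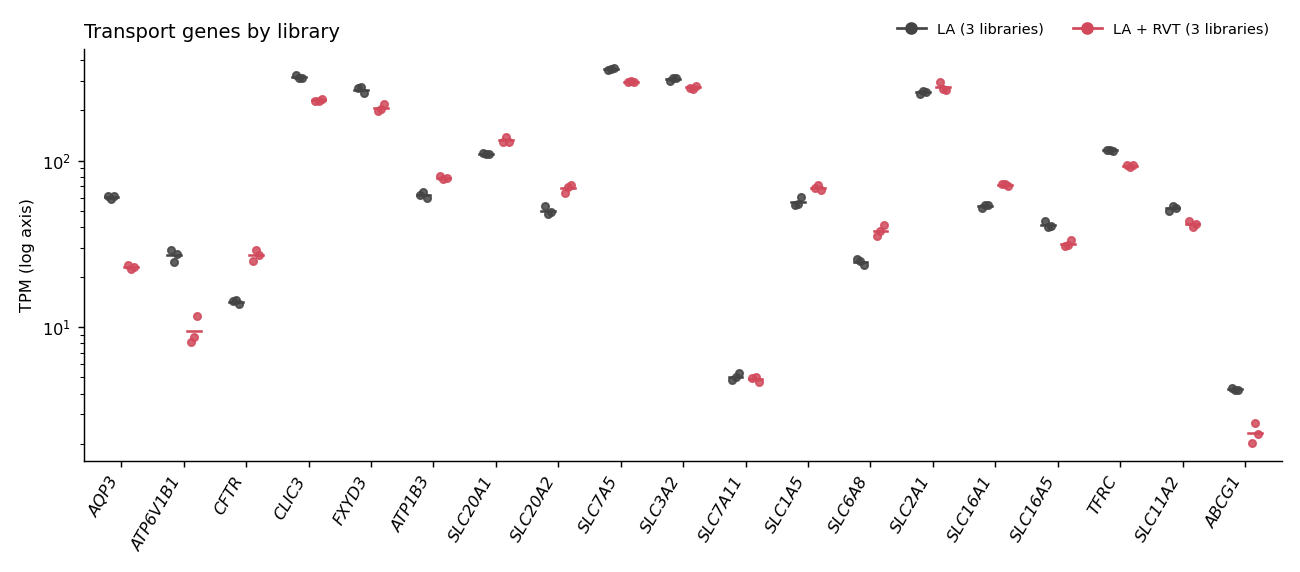
Level of 19 transport genes in each library (TPM, log axis), LA in grey and LA with RVT in red, with a dot per library and a bar at the group mean (n = 3). AQP3 and ATP6V1B1 are lower and CFTR is higher with RVT without overlap, while SLC7A11 overlaps between the groups.

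Outside the lists, CCDC144NL (log2 change 5.62) and CYP1B1 (-2.87) led the 12 largest rises and 12 largest falls. The genes given next ranked lower among these. CRCT1, a cysteine-rich gene of the epidermal differentiation cluster, rose from 3.45 to 10.8 TPM (1.43 ± 0.196), HEBP2, a heme-binding protein, from 15.5 to 41.1 TPM and NOG (noggin), the secreted inhibitor of bone morphogenetic proteins, from 4.54 to 11.8 TPM. CXCL11, an interferon-induced chemokine, fell from 7.44, 7.03 and 7.08 TPM to 1.60, 1.19 and 1.93 TPM (-1.68 ± 0.135), and CA9, a hypoxia-induced carbonic anhydrase, from 8.12 to 2.92 TPM. DBT, a subunit of the branched-chain ketoacid dehydrogenase, read 25.43, 49.21 and 27.19 TPM and then 6.21, 11.29 and 14.73 TPM. Its libraries spread widely, and its call was lost without LA replicate 2, LA replicate 3 or LA and RVT replicate 2. By size in TPM, MT2A, a metallothionein, rose from 2518 ± 155 to 3617 ± 96 TPM, while B2M, the light chain of class I antigen presentation, fell from 4270.2 to 3786 TPM and LCN2 (lipocalin-2) fell from 870.0 to 677 TPM.

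Whether RVT acted differently under PGN was tested for the 12 largest rises and 12 largest falls under LA, as the difference of the effects over all 12 libraries. Over the 15177 genes present in both files that averaged 1 TPM or more across the 12 libraries, 14.8% were called in that test. Of these 24 genes, chosen for large changes under LA, 20 were called. The choice favours genes whose LA effect is the larger, in the same LA libraries that enter the test. The count is therefore not read against that share, and the differences and their adjusted p-values carry the same choice.

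AQP3 was at 89.94, 88.71 and 108.41 TPM in the PGN libraries and 96.39, 92.91 and 107.90 TPM with PGN and RVT, so its groups overlapped there. The log2 change was 0.05 under PGN against -1.36 under LA, a difference of -1.41 ± 0.108 (limma adjusted p = 1.41e-05). ATP6V1B1 changed by 0.06 under PGN against -1.43 (difference -1.49 ± 0.189), CDH5 by -0.11 against -1.22, and NOG by -0.37 against 1.20. KRT16 changed by -0.15 against 1.59 (difference 1.73 ± 0.306), with PGN libraries at 242.47, 173.26 and 130.96 TPM. HEBP2 differed by 1.74 ± 0.319, beside PGN libraries at 21.47, 31.16 and 13.59 TPM whose spread is over 2-fold.

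CXCL11 had a log2 change of -1.68 under LA and -1.72 under PGN, with a difference of 0.04 ± 0.177 (adjusted p = 0.91). CA9 (-1.22 and -0.81) and CRCT1 (1.43 and 0.86) also had the same sign in both, and their differences were not called. CALML5 changed by -1.27 and -0.38, and its difference was called (adjusted p = 0.0433) but lost when any 1 of the 12 libraries was removed, except for LA and RVT replicate 2 or PGN replicate 3. Genes were joined by identifier, and the 2 tables list different gene names for 1432 identifiers. Each stimulus stands in a table of its own, and an effect of the table was not tested. Levels are not compared across the tables.

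**Figure D5:**
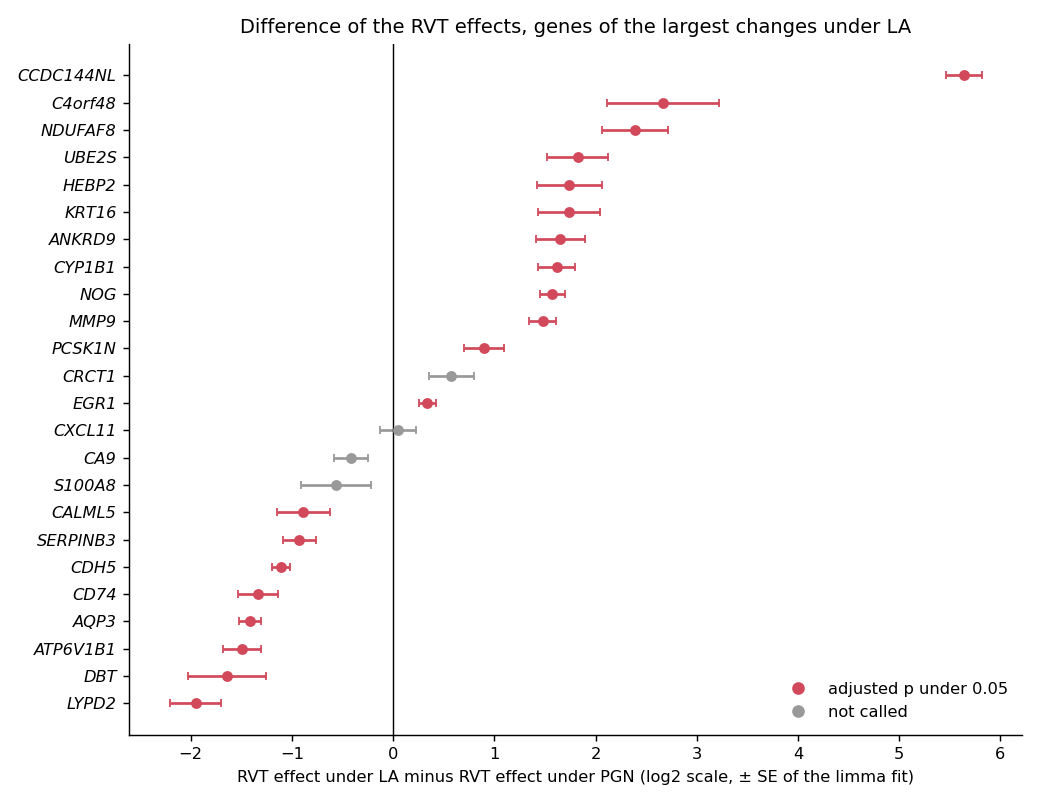
Difference of the RVT effect under LA minus that under PGN for the 24 genes of largest change under LA (log2 scale, point and SE of the limma fit over 12 libraries), red where the adjusted p is below 0.05 and grey otherwise. AQP3, ATP6V1B1, LYPD2 and CDH5 lie below 0, KRT16, NOG and HEBP2 above it, and CXCL11 is at 0.04 ± 0.177.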

How the data were processed

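The study sequenced RNA of SZ95 sebocytes as 12 libraries, grouped by the sample titles, of which the 6 of the LA table were compared here. The authors deposited TPM values rounded to 2 decimals, 1 column per library per the file headers, with 0 columns left unmapped. Per the submitters' processing notes, the build was GRCh38.p13 and the tools HISAT2 2.1.0, DESeq2 1.24.0 and RSEM 1.3.1, whose roles are not stated. Since TPM is a share, a rise in some genes lowers the others, and the read depth cannot be recovered, so counting error has no interval here. The strand setting of the counting is not known.

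Genes averaging 1 TPM or more were kept, put on the log2(TPM + 1) scale and compared with limma 3.58.1 under R 4.3.3 (variance trend on, two-sided, Benjamini-Hochberg adjustment, threshold 0.05). The fit was tested on simulated data. The contrast of the RVT effects between stimuli was fitted on all 12 libraries with a mean per group and genes joined by identifier. Levels were not compared between the LA and PGN tables. Gene types and positions came from GENCODE 29, which matched 15283 of the 15409 tested genes, and promoters from RefSeq (GRCh38.p14).

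The comparison and the lists were chosen with earlier results of these data known. Named genes were the 12 largest rises and falls among called protein-coding genes of at least 5 TPM without overlap, the 8 largest rises and falls in TPM outside mitochondrial and ribosomal protein genes, up to 6 called members per list by p, and a set of 23 genes whatever their values. Further list members were named after their values were seen. Some genes are not reported here. Alternatives were a pseudocount of 0.1, no filter, a filter of 5 TPM, equal library medians, rescaling without mitochondrial and ribosomal protein genes, the replicate number as a block, and leaving out each library.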

Additional observations from a re-analysis of the deposited data

Results flagged for a closer look

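Among the 24 genes of largest change under LA, the limma test of the difference called 20 (adjusted p below 0.05). The genes were picked for their change in the same LA libraries that enter this test. That choice favours a larger effect under LA, so the differences and adjusted p-values are not free of it. Each value is the log2 effect under LA minus that under PGN. Higher under LA than under PGN were CCDC144NL (5.64), C4orf48 (2.67), NDUFAF8 (2.39), UBE2S (1.82), HEBP2 (1.74), KRT16 (1.73), ANKRD9 (1.65), CYP1B1 (1.62), NOG (1.57), MMP9 (1.48), PCSK1N (0.90) and EGR1 (0.34). CYP1B1 had a log2 change of -2.87 under LA and -4.49 under PGN. C4orf48, NDUFAF8, UBE2S and HEBP2 each varied over 2-fold between the 3 PGN libraries without RVT. CCDC144NL was at 0.03 TPM or below in every PGN library. Lower under LA than under PGN were LYPD2 (-1.95), DBT (-1.64), ATP6V1B1 (-1.49), AQP3 (-1.41), CD74 (-1.34), CDH5 (-1.11), SERPINB3 (-0.93) and CALML5 (-0.89).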

How the results depend on the processing

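Against 2426 called genes under LA, 1610 were called with no filter, 1502 with the replicate number as a block, and 1428 to 1690 when a library was left out. For the transport lists (47 called) the block gave 28 and leaving out a library 27 to 31. Deviations of libraries with the same replicate number correlated at -0.070, -0.007 and -0.029, and those with different numbers at -0.030 to 0.058. No shared deviation was seen, but with 3 libraries per group this cannot exclude a pairing. CDH1, which was not called, turned from 0.02 to -0.0244 with equal medians and to -0.0250 with rescaling, and CDH3, not called, ranged from -0.0280 to 0.0186 when a library was left out (above 0 without LA replicate 1). The difference of CXCL11, not called, ranged from -0.0540 to 0.156 when a library was left out, and was below 0 without LA and RVT replicate 3, PGN replicate 1 or PGN and RVT replicate 2. Causes were not tested. Of 235 called list members and named genes, 51 lost their call with no filter, 55 with the block, and 50 to 62 when a library was left out. Without depth, the precision of low genes is unknown.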

Other observations

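Other gene families were read after the values were seen, by grouping protein-coding genes on the letters that open their symbol, with no test. Of 219 families with at least 8 tested members, 12 had 50% or more of them called, where 15.7% of all genes were. They include the keratin, SERPINB and HSPA genes. PSMD, the regulatory particle of the proteasome, had 9 of 14 members higher and none lower, 6 with equal library medians and 5 without LA replicate 1 or LA replicate 2. PSMD2, a scaffold of that particle, rose from 319 to 407 TPM, and PSMD14, its deubiquitinase, rose from 131 to 162 TPM. Among families with roles in ribosome assembly UTP had 6 of 10 higher, NOP 5 of 8 and RRP 4 of 8, and none lower. With equal medians UTP had 1, NOP 2 and RRP 3 higher and NOP also 1 lower, and leaving out any 1 library gave 1 to 3 calls for UTP, 2 to 4 for NOP and 3 to 4 for RRP. NOP16 rose from 36.4 to 53.5 TPM and RRP12 from 14.2 to 20.8 TPM. PDCD, a group by its letters only and not read as 1 pathway, had 5 of 10 higher, 3 with equal medians and 3 to 4 when any 1 library was left out. The other families were mostly lower. RPL, mostly of the large ribosomal subunit, had 2 of 50 higher and 31 lower, the higher ones being RPL31 and the joined entry RPL17-C18orf32. RPS had 0 of 43 higher and 23 lower, and its letters open symbols of small-subunit proteins and of other genes. MCM, which includes the replicative helicase, had 0 of 10 higher and 5 lower. CXCL, of chemokines, had 1 of 8 higher and 4 lower (2 to 4 calls when any 1 library was left out, fewest without LA replicate 1).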
